A study of Mus musculus with 15 samples.

Results

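Expression of 10 genes of the PDGF, KIT and MET receptor axes was measured in 15 mouse RNA-seq libraries. The genes were taken by symbol from the annotation of the 55471 genes in the table: the PDGF ligands Pdgfa, Pdgfb, Pdgfc and Pdgfd, the PDGF receptors Pdgfra and Pdgfrb, the KIT receptor and its ligand (Kit and Kitl), and the MET receptor and its ligand (Met and Hgf). The study concerns YAP1, a transcriptional coactivator, EWS::FLI1, a fusion oncoprotein found in Ewing sarcoma, and IGF-1 in bone mesenchymal stem cells, and poly(A) RNA of cells labelled MSCLCs, an abbreviation that is not spelled out, was sequenced in 2 experiments. Experiment 1 compared 4 libraries of the genotype EFPrx1MSCLC (title numbers 219, 221, 225 and 229) with 3 of the genotype MSC (202, 234 and 237), which the design text calls WT. The titles of MSC 234 and 237 carry WT, and that of MSC 202 does not. Experiment 2 held 4 libraries of the genotype hr (1-1, 1-2, 2-1 and 2-2, titles with Combi and uns), 2 of ha (1 and 2, titles with Combi and T) and 2 of EF (1 and 2), which the design text names hr-EFPrx1, ha-EFPrx1 and EFPrx1. All 8 libraries of experiment 2 carry the title number 221. The sources used here do not give what hr, ha, Combi, uns and T stand for, the promoter or Cre line behind the name Prx1, or the age of the animals. The labels do not say whether replicate libraries stem from different cultures or animals. In experiment 1 each library has its own title number. Ddx3y, a Y-linked gene, was at 87.4 and 43.1 CPM in MSC 202 and 234 and at 0.134 CPM in MSC 237. MSC 237 was therefore not a repeat library of the same sample as MSC 202 or 234. In experiment 2 the spread among libraries may be technical. The p-values cover only the spread among the libraries at hand.

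PDGF ligands act as dimers on the receptor tyrosine kinases PDGFRA and PDGFRB and drive growth and migration of mesenchymal cells. PDGF-A and PDGF-B are cut to their active form inside the cell, whereas PDGF-C and PDGF-D are secreted with a CUB domain that proteases remove. PDGF-A binds PDGFRA, PDGF-D mainly PDGFRB, PDGF-C mainly PDGFRA, and PDGF-B binds both. KIT is a receptor of the same structural class, held by hematopoietic progenitors, mast cells and melanocytes, and bone marrow stromal cells supply its ligand, stem cell factor, from Kitl. MET is the receptor of hepatocyte growth factor, which mesenchymal cells secrete from Hgf as an inactive chain that proteases such as urokinase activate.

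Sequence near the RefSeq start is shown for Met, Hgf, Pdgfd and Pdgfra. The 250 bases upstream of the RefSeq start (GRCm38.p6) are shown for Pdgfra, Hgf and Pdgfd. Pdgfra lies on the plus strand at chr5:75152001-75152250, Hgf on the plus strand at chr5:16553245-16553494, and Pdgfd on the plus strand at chr9:6168236-6168485. For Met, on the plus strand of chromosome 6, 2 stretches of its window are shown, chr6:17463707-17463799 and chr6:17463893-17463919. Capitals mark letters of the motifs searched on both strands, which were GGAATG (TEAD), TGACTCA or TGAGTCA (AP-1), 3 GGAA units in a row, GGGCGG (GC box), TGACGTCA (CRE) and ACGTG (hypoxia response).
Pdgfra: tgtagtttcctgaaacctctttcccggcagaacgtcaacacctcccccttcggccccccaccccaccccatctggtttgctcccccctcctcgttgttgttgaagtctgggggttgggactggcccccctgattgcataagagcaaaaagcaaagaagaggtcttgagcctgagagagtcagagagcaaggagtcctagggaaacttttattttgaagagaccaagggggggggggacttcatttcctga
Hgf: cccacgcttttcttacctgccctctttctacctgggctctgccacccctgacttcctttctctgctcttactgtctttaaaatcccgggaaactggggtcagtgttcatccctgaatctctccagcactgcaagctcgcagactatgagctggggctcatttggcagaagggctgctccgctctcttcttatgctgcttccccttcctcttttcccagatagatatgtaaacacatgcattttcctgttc
Pdgfd: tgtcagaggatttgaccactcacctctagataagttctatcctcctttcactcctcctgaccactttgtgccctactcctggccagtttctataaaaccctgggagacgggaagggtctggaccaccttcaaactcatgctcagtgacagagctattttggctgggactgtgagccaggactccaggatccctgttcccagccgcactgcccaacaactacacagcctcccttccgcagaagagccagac
Met, distal stretch: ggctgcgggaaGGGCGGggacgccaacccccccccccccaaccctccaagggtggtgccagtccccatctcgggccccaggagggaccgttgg
Met, AP-1 stretch: gttgcccggcTGAGTCAcgggccgggc

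The whole Met window was rich in G and C (74.0%, against a median of 52.4% over 32536 RefSeq windows of the same length) and held 3 GC boxes, the AP-1 letters TGAGTCA at position -54 and the palindrome CACGTG, which is read as the hypoxia letters on both strands. GC boxes were present in 33% of all windows, AP-1 letters in 4.5% and the hypoxia letters in 16.7%. The Pdgfra, Hgf and Pdgfd windows shown held none of the 6 motifs and had 54.4%, 50.8% and 53.6% G and C. Among the other genes, the TEAD letters occurred at -137 of Pdgfc (12.6% of all windows). The Kitl window held 3 GC box matches, of which those at -45 and -41 overlap, and the Pdgfa and Kit windows held GC boxes too. The Met start in GENCODE, at 17463800, lies upstream of the RefSeq one, so the AP-1 letters, CACGTG and 2 of the 3 GC boxes (at -117 and -20) lie downstream of the GENCODE start. These matches describe letters in a window and not binding. Pdgfb and Pdgfrb had no entry in the table of windows.

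Library totals ran from 14906180 to 26833876 counts in experiment 1 and from 11195371 to 16378368 in experiment 2, and the experiments were run on different flowcells, so groups were compared within an experiment only. All 10 mesenchymal stromal markers examined (Thy1, Eng, Nt5e, Ly6a, Prrx1, Vcam1, Itgb1, Col1a1, Col1a2 and Twist1) exceeded 1 CPM in every library. The 12 hematopoietic markers summed to 48.8 to 406 CPM in EFPrx1MSCLC and to 11700 to 33200 CPM in MSC, where all 12 exceeded 1 CPM in every library. In experiment 2 they summed to 7.75 to 9.28 CPM in hr, 12.7 to 28.7 CPM in ha and 9.31 to 9.34 CPM in EF, with Adgre1, C1qa, C1qb, Cd48 and Fcgr3 at 0 in all 8 libraries. Median squared differences between libraries, relative to those that counting noise alone gives, were 1.3 to 1.31 for hr libraries that share a first number and 14.1 to 15.5 for hr libraries that do not. They were 18.8 between the ha libraries and 1.35 between the EF libraries. In MSC they were 94.9 and 68.8 for MSC 202 against MSC 234 and 237, and 10.5 between MSC 234 and 237. In EFPrx1MSCLC they were 6.92 between 221 and 229 and 42.3 to 81.7 for the other pairs. The 3 nearly identical pairs of experiment 2 (2 of hr and 1 of EF) entered the tests as 6 libraries, and results with each pair summed to 1 library are given beside the comparisons.

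Levels are CPM after TMM normalisation within each experiment, so the scales of the experiments were set separately. In experiment 1, EFPrx1MSCLC libraries held far more Met and Pdgfd RNA and far less Hgf RNA than MSC libraries, with Kitl higher and Pdgfrb lower. In experiment 2, ha libraries stood apart from both EF and hr libraries with high Pdgfra, Pdgfrb and Pdgfd and low Kitl, Pdgfa and Met. The hr libraries differed from EF in fewer of these genes, with Pdgfa and Pdgfrb lower. Kit RNA was near 0 in all 15 libraries.

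**Figure D1:**
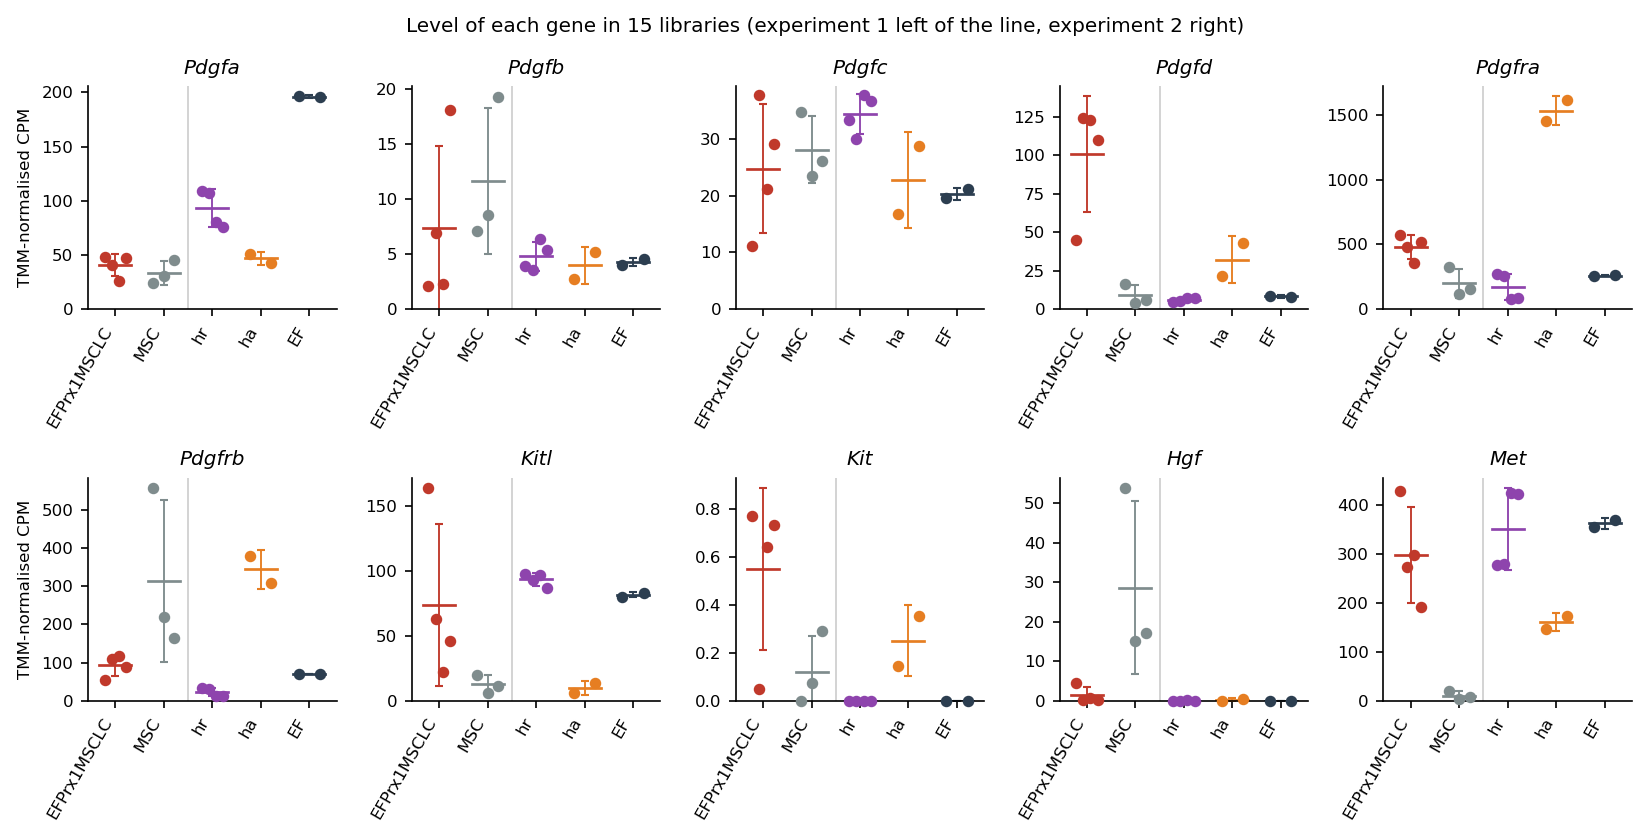
Level of each of the 10 genes in TMM-normalised CPM (linear axes that start at 0) in every library, with points for libraries, horizontal lines for group means and bars for 1 SD, cut at 0; experiment 1 stands left of the grey line and experiment 2 right of it. Met was between 191 and 429.7 CPM in EFPrx1MSCLC and between 3.48 and 20.4 CPM in MSC, and Pdgfra reached 1452 and 1611 CPM in ha.

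Between genes, levels were compared per length, as RPKM over the merged exons. In EFPrx1MSCLC the order was led by Pdgfra (48.0 ± 9.29 RPKM), Met (38.9 ± 12.9) and Pdgfd (31.9 ± 11.9; SD, n = 4), neighbours whose differences lay within their spread, followed by Pdgfrb (16.9 ± 4.98), Pdgfa (13.0 ± 3.33) and Kitl (12.5 ± 10.5). In MSC the order was led by Pdgfrb (57.3 ± 39.0 RPKM), Pdgfra (20 ± 11.3) and Pdgfa (10.7 ± 3.45; SD, n = 3), and Met stood ninth with 1.36 ± 1.15 RPKM. In hr, Met led with 45.7 ± 11 RPKM over Pdgfa with 29.9 ± 5.55 RPKM, Pdgfra with 17.3 ± 10.2 RPKM and Kitl with 15.8 ± 0.866 RPKM (SD, n = 4). In ha, Pdgfra led with 153 ± 11.2 RPKM over Pdgfrb with 62.9 ± 9.17 RPKM and Met with 20.9 ± 2.43 RPKM (SD, n = 2). In EF, Pdgfa led with 62.9 ± 0.338 RPKM over Met with 47.3 ± 1.44 RPKM and Pdgfra with 25.9 ± 0.215 RPKM (SD, n = 2). Kit was the lowest or at 0 in all 5 groups, and Pdgfb did not exceed a mean of 2.79 RPKM in any group.

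Experiment 1 set cells with the EFPrx1 label against MSC cells. Of the 10 genes, 5 passed edgeR's quasi-likelihood test at an adjusted p under 0.05, where 19.8% of the 14596 genes tested passed. Met, Pdgfd and Kitl rose in EFPrx1MSCLC, where 7.7% of all genes passed as higher, and Hgf and Pdgfrb fell, where 12.1% passed as lower. In 6 of the 10 genes, Pdgfra among them, the 2 groups of libraries did not overlap, as in 34.5% of all genes tested. The median log2 fold change was 0.78 over the 10 genes and 0.04 over all genes tested.

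The MET axis showed opposite changes of receptor and ligand. Met (ENSMUSG00000009376; chromosome 6, 17463800 to 17573980, plus strand), the receptor, stood at 429.7, 274.7, 298.5 and 191 CPM in EFPrx1MSCLC 219, 221, 225 and 229, against 20.4, 3.48 and 7.58 CPM in MSC 202, 234 and 237. Every EFPrx1MSCLC library was far above every MSC library, and MSC 202 was the highest of its group. Met was 28.3-fold higher in EFPrx1MSCLC, a log2 fold change of 4.83 ± 0.70 (SE; edgeR adjusted p = 0.00506). This call was kept when each of the 7 libraries was left out, with log2 fold changes of 4.41 to 5.76, the highest without MSC 202. Hgf (ENSMUSG00000028864; chromosome 5, 16553495 to 16620152, plus strand), the ligand, stood at 4.56, 0.0959, 0.770 and 0.174 CPM in EFPrx1MSCLC 219, 221, 225 and 229, against 53.9, 15.1 and 17 CPM in MSC 202, 234 and 237. The groups did not overlap, and EFPrx1MSCLC 219 and MSC 202 were each far above the rest of their own group. Hgf averaged 1.40 ± 2.13 CPM in EFPrx1MSCLC and 28.7 ± 21.8 CPM in MSC (SD, n = 4 and 3), a log2 fold change of -4.36 ± 1.26 (SE; edgeR adjusted p = 0.0479). Without EFPrx1MSCLC 219 the log2 fold change was -6.48 and without MSC 202 it was -3.52, and leaving out any library other than EFPrx1MSCLC 219 raised the adjusted p to between 0.0749 and 0.104. With no filter on low counts the Hgf call ended too (edgeR adjusted p = 0.101). A gene of the same strand that overlaps Hgf, Gm43489, reached at most 12.7% of the Hgf level in a library.

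In the KIT axis, the ligand was expressed and the receptor was close to absent. Kitl (ENSMUSG00000019966; chromosome 10, 100015630 to 100100416, plus strand) stood at 164, 63.1, 22.2 and 46.0 CPM in EFPrx1MSCLC 219, 221, 225 and 229, against 20.1, 6.06 and 11.6 CPM in MSC 202, 234 and 237. The groups did not overlap, but EFPrx1MSCLC 225 and MSC 202 were close to each other, and EFPrx1MSCLC 219 was far above its group. Kitl was 5.86-fold higher in EFPrx1MSCLC, a log2 fold change of 2.55 ± 0.75 (SE) that passed narrowly (edgeR adjusted p = 0.0495). Without EFPrx1MSCLC 219 the log2 fold change was 1.74 (edgeR adjusted p = 0.0682), and the call also ended without EFPrx1MSCLC 221 or 229, without MSC 234 or 237, and under limma-voom. It ended as well with no filter on low counts (edgeR adjusted p = 0.073) and with a filter of 5 CPM (edgeR adjusted p = 0.0523). Kit (ENSMUSG00000005672; chromosome 5, 75574916 to 75656722, plus strand) had 15, 1, 10 and 21 counts in EFPrx1MSCLC 219, 221, 225 and 229, against 0, 1 and 4 counts in MSC 202, 234 and 237. Its summed share was 0.555 CPM in EFPrx1MSCLC and 0.101 CPM in MSC, a ratio with an exact 95% binomial interval of 2.18 to 17.6 that covers counting error only. The difference did not pass edgeR's test (log2 fold change 2.22 ± 1.20, adjusted p = 0.223), and its log2 fold change was 3.89 without MSC 237 and 1.55 without MSC 202. Marker sums of mast cells, which depend on KIT, were at most 0.512 CPM in EFPrx1MSCLC and 0.315 CPM in MSC, and those of melanocytes 1.29 to 38.4 CPM in EFPrx1MSCLC and 0.866 to 3.42 CPM in MSC, with Dct and Tyr at 0 in all 7 libraries.

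Among PDGF ligands, 1 of 4 passed the test, where 19.8% of all genes passed. Pdgfd (ENSMUSG00000032006; chromosome 9, 6168584 to 6378850, plus strand) stood at 45.1, 124, 123 and 110.2 CPM in EFPrx1MSCLC 219, 221, 225 and 229, against 16.7, 4.09 and 6.28 CPM in MSC 202, 234 and 237. All EFPrx1MSCLC libraries were above all MSC libraries, and EFPrx1MSCLC 219 was the lowest of its group and MSC 202 the highest of its own. Pdgfd was 11.1-fold higher in EFPrx1MSCLC, a log2 fold change of 3.47 ± 0.62 (SE; edgeR adjusted p = 0.00935), and the call was kept when each library was left out, with log2 fold changes of 3.13 to 4.28. Pdgfa, the ligand of PDGFRA, averaged 40.6 ± 10.4 CPM in EFPrx1MSCLC and 33.4 ± 10.8 CPM in MSC, and did not pass (edgeR adjusted p = 0.545). Pdgfb, whose values ran from 2.10 to 18.0 CPM in EFPrx1MSCLC and from 7.06 to 19.3 CPM in MSC, and Pdgfc, from 11.1 to 37.7 CPM in EFPrx1MSCLC and from 23.5 to 34.7 CPM in MSC, did not pass either (edgeR adjusted p = 0.582 and 0.773).

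Counted per length, Pdgfd made up 60.3 ± 12.9% of the RNA of the 4 PDGF ligands in EFPrx1MSCLC and 13.1 ± 9.77% in MSC (SD, n = 4 and 3). Pdgfa made up 27.6 ± 14.0% in EFPrx1MSCLC and 48.9 ± 10.8% in MSC. The Pdgfd share was 43.9% to 75.0% in single EFPrx1MSCLC libraries and 7.34% to 24.4% in single MSC libraries, so these ranges did not overlap, whereas those of Pdgfa did (16% to 47.8% in EFPrx1MSCLC and 36.4% to 55.3% in MSC).

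**Figure D2:**
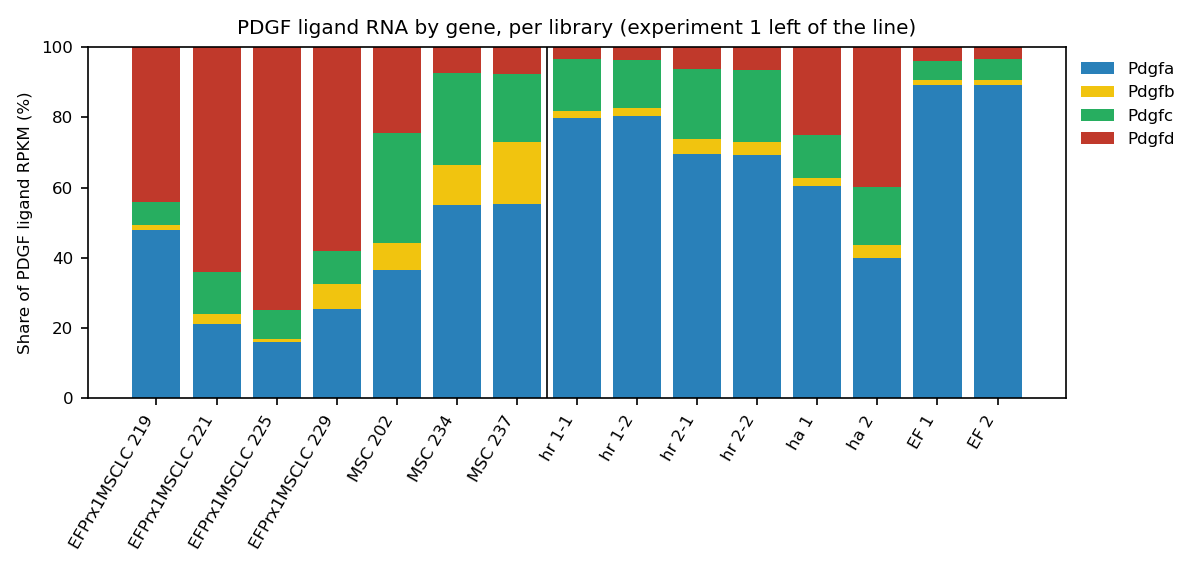
Share of each PDGF ligand gene in the summed RPKM of Pdgfa, Pdgfb, Pdgfc and Pdgfd, in percent, with 1 stacked bar per library, experiment 1 left of the line and experiment 2 right of it. Pdgfd took 43.9% to 75.0% in EFPrx1MSCLC, and Pdgfa took 89.1% and 89.3% in EF.

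The PDGF receptors went different ways. Pdgfra (ENSMUSG00000029231; chromosome 5, 75152292 to 75198215, plus strand) stood at 576, 480.4, 355 and 516 CPM in EFPrx1MSCLC 219, 221, 225 and 229, against 329, 116 and 155 CPM in MSC 202, 234 and 237. The groups did not overlap, with EFPrx1MSCLC 225 just above MSC 202. The log2 fold change of 1.27 ± 0.42 (SE) did not pass (edgeR adjusted p = 0.0702), but it passed with DESeq2 (adjusted p = 0.0134), with limma-voom (adjusted p = 0.0393) and without MSC 202 (log2 fold change 1.84, edgeR adjusted p = 0.0079). It did not pass when any other single library was left out (edgeR adjusted p from 0.0617 without EFPrx1MSCLC 225 to 0.234 without MSC 237). Pdgfrb (ENSMUSG00000024620; chromosome 18, 61045150 to 61085061, plus strand) stood at 55.2, 109, 116 and 89.1 CPM in EFPrx1MSCLC 219, 221, 225 and 229, against 558, 218.5 and 165 CPM in MSC 202, 234 and 237. All MSC libraries were above all EFPrx1MSCLC libraries, MSC 202 by the most. Pdgfrb was 3.40-fold lower in EFPrx1MSCLC, a log2 fold change of -1.76 ± 0.47 (SE; edgeR adjusted p = 0.0387). The call ended without EFPrx1MSCLC 219, 221 or 229 and without MSC 234 (edgeR adjusted p from 0.0591 to 0.0828), and without MSC 202 the log2 fold change was -1.05.

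These libraries also differed in other ways that run with the groups. The hematopoietic sum was 11700, 33200 and 20600 CPM in MSC 202, 234 and 237, and 406, 48.8, 54.6 and 65.5 CPM in EFPrx1MSCLC 219, 221, 225 and 229, and its part in the results was not tested. The mesenchymal sum was 3500 to 8890 CPM in EFPrx1MSCLC and 12800 to 19100 CPM in MSC, and mitochondrial genes took 4.06% to 8.43% of counts in EFPrx1MSCLC and 1.63% to 3.52% in MSC; their part was not tested either. The lower mesenchymal sum came from 3 of the 10 markers (Col1a1, Col1a2 and Vcam1), and the means of the other 7 were higher in EFPrx1MSCLC. Col1a1 averaged 771 CPM in EFPrx1MSCLC and 5518 CPM in MSC, whereas Prrx1 averaged 628 CPM in EFPrx1MSCLC and 208 CPM in MSC. The 6 epithelial markers summed to 0.128 to 7.1 CPM in EFPrx1MSCLC, with Cdh1 at 0 in all 4 libraries, and to 18.3 to 39.4 CPM in MSC, with Epcam, Krt18 and Cldn4 at 0 in all 3, and their part was not tested. In such mixed RNA, fewer cells of a type and less RNA per cell cannot be told apart. MSC 202, with the lowest hematopoietic sum of its group, had the group's highest level of Met, Hgf, Kitl, Pdgfc, Pdgfd, Pdgfra and Pdgfrb. Ddx3y, a Y-linked gene, was at most 0.0656 CPM of the library total in EFPrx1MSCLC, against 87.4, 43.1 and 0.134 CPM in MSC 202, 234 and 237. Y-linked expression as a covariate separates MSC 202 and 234 from the other libraries, so that fit sets EFPrx1MSCLC against MSC 237 alone. It cannot tell genotype and Y-linked expression apart beyond that library, and its calls are not given. Its log2 fold changes were 5.30 for Met, 4.00 for Pdgfd, 2.67 for Kitl, -3.61 for Hgf and -0.83 for Pdgfrb. Without the covariate DESeq2 called 6 of the 10 genes and limma-voom 5. Over all genes DESeq2 called 4598 and limma-voom 3089, against 2887 with edgeR.

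**Figure D3:**
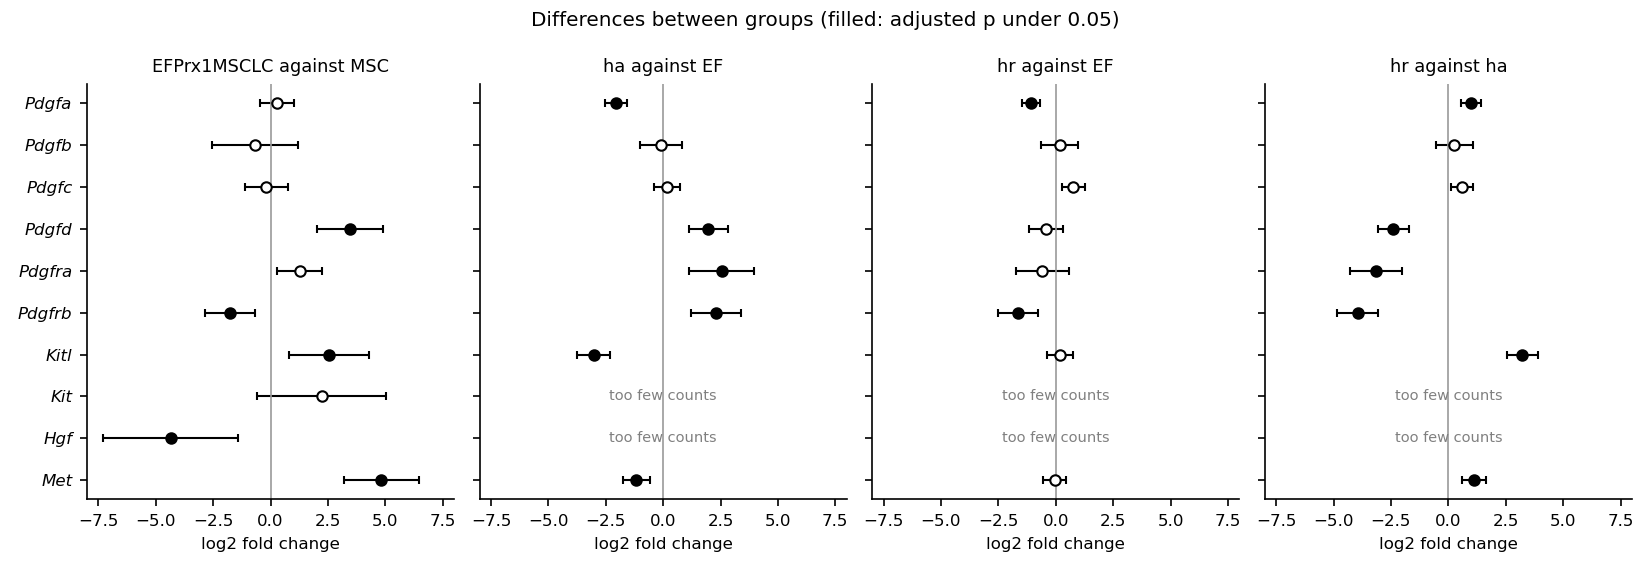
Log2 fold changes of the 10 genes in the 4 comparisons (first group over second) with 95% intervals from edgeR; filled points passed at an adjusted p under 0.05. Met and Pdgfd had the largest positive values in EFPrx1MSCLC against MSC, and Kit and Hgf had too few counts in experiment 2 for the test.

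Around these receptors, 56 further genes were examined in 5 lists (related receptors and their ligands, ligand activation and its inhibitors, receptor partners, receptor-proximal signalling, and negative regulators). In EFPrx1MSCLC against MSC, 51 were tested, and 12 passed, 3 higher and 9 lower, where 19.8% of all genes passed (7.7% as higher and 12.1% as lower). The median log2 fold change was 0.23 over the 51 and 0.04 over all genes, and the counts show nothing particular to these lists. Without EFPrx1MSCLC 221, MSC 234 or MSC 237, 8 of the 12 calls remained (edgeR adjusted p under 0.05). The fit with Y-linked expression as a covariate rests on MSC 237 alone in its group, so its calls are not given. Of 6 related receptors and ligands tested, 3 fell. These were Mst1r, the MET-family receptor RON (0.115 ± 0.0546 CPM in EFPrx1MSCLC and 5.83 ± 0.368 CPM in MSC; log2 fold change -5.62 ± 0.59, edgeR adjusted p = 0.00185), Csf1r, the macrophage colony-stimulating factor receptor, which is also one of the hematopoietic markers (-6.62 ± 1.31, edgeR adjusted p = 0.0141), and its ligand gene Il34 (-3.26 ± 0.64, edgeR adjusted p = 0.0137). Pcsk5, a proprotein convertase, was the 1 called gene of 9 tested for ligand activation, with 0.123 ± 0.0518 CPM in EFPrx1MSCLC and 43.2 ± 5.11 CPM in MSC (log2 fold change -8.41 ± 0.39, edgeR adjusted p = 0.000289). Among 12 negative regulators, the phosphatase genes Ptpn6, which is most abundant in hematopoietic cells, and Ptprj fell by 5.02 and 1.52 on the log2 scale, Socs3, a feedback inhibitor of cytokine receptors, fell by 2.92, and Rasa1, a Ras GTPase-activating protein, rose by 1.12. Among 19 signalling genes, Src and Pik3cb rose by 1.18 and 1.09, and the docking protein gene Gab2 and the kinase gene Fyn fell by 1.72 and 0.77. The 5 receptor partners did not pass in edgeR, where the lowest unadjusted p was 0.0792, for Lrp1.

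Experiment 2 compared ha and hr cells with EF cells and with each other. The 3 comparisons share libraries, so each gene's values in them are not independent. In ha against EF, 8 of the 10 genes had enough counts for the test and 6 passed, where 42.6% of 13998 genes passed. Pdgfd, Pdgfra and Pdgfrb rose in ha (23% of all genes passed as higher), and Pdgfa, Kitl and Met fell (19.6% passed as lower). The ha and EF libraries did not overlap for these 6 genes, as for 75.8% of all genes tested. The median log2 fold change was 0.03 over the 8 genes and 0.05 over all genes. Both PDGF receptors and the ligand Pdgfd were several-fold higher in ha, and Kitl and Pdgfa RNA was several-fold lower.

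Pdgfra stood at 1452 and 1611 CPM in ha 1 and 2, against 258 and 261.5 CPM in EF 1 and 2. The groups lay far apart, and the ha values were the highest of Pdgfra in the 8 libraries of experiment 2. Pdgfra was 5.89-fold higher in ha, a log2 fold change of 2.56 ± 0.61 (SE; edgeR adjusted p = 0.0126). With no filter on low counts this call ended (edgeR adjusted p = 0.0748). Pdgfrb stood at 380.0 and 309 CPM in ha 1 and 2, against 69.0 and 70.1 CPM in EF 1 and 2. It was 4.95-fold higher in ha with no overlap (log2 fold change 2.31 ± 0.46, edgeR adjusted p = 0.00621). Both receptor calls ended when either EF library was left out (edgeR adjusted p of 0.0802 and 0.0812 for Pdgfra and of 0.0511 and 0.0521 for Pdgfrb), where the lone EF library is assumed to vary like the other groups.

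Pdgfd stood at 21.6 and 42.9 CPM in ha 1 and 2, against 8.78 and 7.74 CPM in EF 1 and 2. The ha libraries were both above EF but far from each other. Pdgfd was 3.90-fold higher in ha, a log2 fold change of 1.96 ± 0.36 (SE; edgeR adjusted p = 0.00458) that was 1.39 without ha 2 and 2.37 without ha 1. Pdgfa (ENSMUSG00000025856; chromosome 5, 138976014 to 138997370, minus strand) stood at 51.4 and 42.5 CPM in ha 1 and 2, against 197 and 195 CPM in EF 1 and 2. The EF libraries agreed closely and were the highest of Pdgfa in experiment 2. Pdgfa was 4.18-fold lower in ha, a log2 fold change of -2.06 ± 0.21 (SE; edgeR adjusted p = 0.00047). A gene on the opposite strand, 6330403L08Rik, overlaps Pdgfa, reached at most 78.2% of its level in a library, and averaged 22.4 ± 3.77 CPM in ha and 37.8 ± 3.84 CPM in EF (SD, n = 2 each). The strand setting of the counting was not stated, so reads of the pair may not have been told apart. Its own difference did not pass (log2 fold change -0.76 ± 0.39, edgeR adjusted p = 0.154). Pdgfb and Pdgfc overlapped between the groups and did not pass.

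Of the PDGF ligand RNA per length, Pdgfd made up 32.5 ± 10.4% in ha and 3.71 ± 0.316% in EF, and Pdgfa 50.2 ± 14.5% in ha and 89.2 ± 0.136% in EF (SD, n = 2 each).

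Kitl stood at 6.22 and 13.6 CPM in ha 1 and 2, against 79.9 and 82.9 CPM in EF 1 and 2. Both ha libraries were far below EF, and ha 1 was the lower. Kitl was 8.14-fold lower in ha, a log2 fold change of -3.03 ± 0.31 (SE; edgeR adjusted p = 0.00047), with -3.71 without ha 2 and -2.59 without ha 1. Kit had 2 and 6 counts in ha 1 and 2 and 0 counts in both EF libraries, which is at least 2.07-fold higher in ha against a floor of 3 counts over the EF group, if the 8 counts of ha are taken as exact. With the counting error of both groups, the exact 95% binomial interval of the ratio starts at 1.33. Met stood at 148 and 174 CPM in ha 1 and 2, against 355 and 371 CPM in EF 1 and 2. It was 2.26-fold lower in ha with no overlap (log2 fold change -1.18 ± 0.25, edgeR adjusted p = 0.00788). Hgf had 0 and 8 counts in ha 1 and 2 and 0 counts in both EF libraries, so all its counts in these groups came from ha 2.

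With each of the 3 nearly identical pairs summed to 1 library, Pdgfa and Kitl remained called in ha against EF (edgeR adjusted p = 0.0299 and 0.0314), and Met, Pdgfd, Pdgfra and Pdgfrb did not (edgeR adjusted p from 0.0789 to 0.099). The mesenchymal marker sum was 15500 to 17400 CPM in ha and 9060 to 9250 CPM in EF, with 8 of the 10 marker means higher in ha, and its part in the results was not tested. The epithelial marker sum was 32.2 to 38.5 CPM in hr, 0.589 to 1.02 CPM in ha and 13 to 14.5 CPM in EF, with Epcam at 0 in all 8 libraries. Most of it was the keratin gene Krt19 in hr (mean 33.5 CPM) and in EF (10.3 CPM), and its part was not tested.

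In hr against EF, 2 of the 8 tested genes passed, both lower in hr, where 6.95% of all genes passed, 3.88% as higher and 3.07% as lower. The hr and EF libraries did not overlap for 5 of the 8 genes (Pdgfa, Pdgfc, Pdgfd, Pdgfrb and Kitl), as for 47% of all genes tested. The median log2 fold change was -0.24 over the 8 genes and 0.01 over all genes. Pdgfa stood at 109, 107, 80.6 and 76.2 CPM in hr 1-1, 1-2, 2-1 and 2-2, against 197 and 195 CPM in EF 1 and 2. All hr libraries were below EF, and the libraries with first number 1 were above those with first number 2. Pdgfa was 2.10-fold lower in hr, a log2 fold change of -1.07 ± 0.17 (SE; edgeR adjusted p = 0.0165). The overlapping gene 6330403L08Rik averaged 24.2 ± 9.50 CPM in hr and 37.8 ± 3.84 CPM in EF and did not pass (edgeR adjusted p = 0.265).

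Pdgfrb stood at 32.6, 30.3, 13.2 and 13.1 CPM in hr 1-1, 1-2, 2-1 and 2-2, against 69.0 and 70.1 CPM in EF 1 and 2. Again all hr libraries were below EF and stood at 2 levels by first number. Pdgfrb was 3.12-fold lower in hr, a log2 fold change of -1.64 ± 0.38 (SE; edgeR adjusted p = 0.0451). Pdgfra stood at 268.5, 255, 81.8 and 89.3 CPM in hr 1-1, 1-2, 2-1 and 2-2, against 258 and 261.5 CPM in EF 1 and 2. The libraries with first number 1 were at the EF level and those with first number 2 well below it. This difference did not pass (log2 fold change -0.58 ± 0.49, edgeR adjusted p = 0.495).

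Met stood at 277, 279, 426 and 423 CPM in hr 1-1, 1-2, 2-1 and 2-2, against 355 and 371 CPM in EF 1 and 2. Here the first numbers lay on either side of EF. The log2 fold change was -0.05 (95% interval -0.54 to 0.45; edgeR adjusted p = 0.917), an interval that takes in differences in both directions. Kitl stood at 97.7, 92.4, 96.8 and 86.5 CPM in hr 1-1, 1-2, 2-1 and 2-2, just above the 79.9 and 82.9 CPM in EF 1 and 2, and did not pass (log2 fold change 0.20, 95% interval -0.37 to 0.76; edgeR adjusted p = 0.654).

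Pdgfc (ENSMUSG00000028019; chromosome 3, 81036416 to 81214040, plus strand) stood at 33.2, 30, 37.7 and 36.7 CPM in hr 1-1, 1-2, 2-1 and 2-2, against 19.6 and 21.1 CPM in EF 1 and 2. All hr libraries were above EF. The log2 fold change of 0.76 ± 0.22 (SE) did not pass (edgeR adjusted p = 0.0762), but it passed with DESeq2 (adjusted p = 0.0188) and when only the hr and EF libraries were fitted (edgeR adjusted p = 0.0163). Pdgfd, at 4.72 to 7.37 CPM in hr and 7.74 to 8.78 CPM in EF, did not pass (edgeR adjusted p = 0.43), nor did Pdgfb (ENSMUSG00000000489; chromosome 15, 79995874 to 80014977, minus strand), at 3.58 to 6.35 CPM in hr and 3.99 to 4.55 CPM in EF (edgeR adjusted p = 0.809). Kit had 0 counts in all hr and EF libraries, which allows up to 0.0614 CPM in hr and 0.126 CPM in EF (3 counts over each group). Hgf had 2 counts in hr, both in hr 2-1, and 0 in EF.

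Both calls of hr against EF depended on EF being counted as 2 libraries. Without EF 1 or without EF 2, 0 of the 8 genes passed in edgeR, with 2 and 3 at an unadjusted p under 0.05, and with the nearly identical pairs summed 0 passed, with 2 at an unadjusted p under 0.05. DESeq2 called 3 and limma-voom 2 of them with all libraries. Over all genes DESeq2 called 1973 and limma-voom 721, against 973 with edgeR. The Pdgfrb call also ended without hr 1-2, 2-1 or 2-2 (edgeR adjusted p from 0.0630 to 0.0779). With no filter on low counts it ended as well (edgeR adjusted p = 0.168).

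In hr against ha, 6 of the 8 tested genes passed, where 39.4% of all genes passed. Pdgfa, Kitl and Met were higher in hr (17.9% of all genes passed as higher), and Pdgfd, Pdgfra and Pdgfrb were lower (21.5% passed as lower). The median log2 fold change was 0.43 over the 8 genes and 0.00 over all genes. The groups of libraries did not overlap for these 6 genes or for Pdgfc, as for 55.9% of all genes tested. Pdgfrb averaged 22.3 ± 10.6 CPM in hr and 344 ± 50.2 CPM in ha (SD, n = 4 and 2), 15.5-fold lower in hr (log2 fold change -3.95 ± 0.38, edgeR adjusted p = 0.000352). Kitl averaged 93.4 ± 5.12 CPM in hr and 9.92 ± 5.23 CPM in ha, 9.34-fold higher in hr (log2 fold change 3.22 ± 0.29, edgeR adjusted p = 0.000264), and still passed at 3.91 without ha 2 and at 2.78 without ha 1. Pdgfra averaged 174 ± 102 CPM in hr and 1532 ± 113 CPM in ha, 8.83-fold lower in hr (log2 fold change -3.14 ± 0.49, edgeR adjusted p = 0.00232).

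Pdgfd was 5.26-fold lower in hr than in ha (log2 fold change -2.40 ± 0.30, edgeR adjusted p = 0.000915), and was -1.82 on the log2 scale without ha 2. Met was 2.18-fold higher in hr (log2 fold change 1.13 ± 0.23, edgeR adjusted p = 0.00677), and Pdgfa 1.99-fold higher (0.99 ± 0.18, edgeR adjusted p = 0.00493). These last 2 calls ended with the nearly identical pairs summed (edgeR adjusted p = 0.0642 for Met and 0.0630 for Pdgfa), and the other 4 were kept. Pdgfc, at 34.4 ± 3.54 CPM in hr and 22.8 ± 8.49 CPM in ha, did not pass (log2 fold change 0.59 ± 0.21, edgeR adjusted p = 0.0594). It passed with DESeq2 (adjusted p = 0.0330), limma-voom (0.0454), no filter on low counts (edgeR, 0.0321) and without ha 2 (log2 fold change 1.04, edgeR adjusted p = 0.00601), and was 0.26 without ha 1. Pdgfb did not pass. Kit had 0 counts over the 4 hr libraries and 8 over the 2 ha libraries, at least 4.25-fold lower in hr against a floor of 3 counts over the hr group, if the 8 counts of ha are taken as exact. With the counting error of both groups, the exact 95% binomial interval of the ratio of hr to ha ends at 0.367. Hgf had 2 counts in hr and 8 in ha, a ratio with an exact 95% binomial interval of 0.0162 to 0.785 for counting error only.

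Yap1, the gene in the study's title, averaged 1613 ± 224 CPM in hr, 191 ± 7.73 CPM in ha and 1262 ± 19.3 CPM in EF (SD, n = 4, 2 and 2). Its start lies 1.84 Mb from that of Pdgfd on chromosome 9. In experiment 1 Yap1 averaged 197 ± 18.2 CPM in EFPrx1MSCLC and 92.6 ± 37.5 CPM in MSC. Kit and Pdgfra, whose starts lie 0.423 Mb apart on chromosome 5, differed in level by orders of magnitude in every group.

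Of the 56 further pathway genes, 45 were tested in experiment 2. In ha against EF, 15 passed, 9 higher and 6 lower, where 42.6% of all genes passed (23% as higher and 19.6% as lower), and the counts show nothing particular to these lists. With the nearly identical pairs summed, 2 of the 15 calls remained (Plau and Plaur), and without either EF library 6 did (also Pdgfrl, Plxnb1, Pik3r1 and Ptpn6). Plau, the urokinase that can activate HGF, rose in ha (117 ± 16.5 CPM in ha and 18.3 ± 1.73 CPM in EF; log2 fold change 2.69 ± 0.32, edgeR adjusted p = 0.000865), whereas Plaur, its receptor, fell (11.7 ± 1.36 CPM in ha and 84.5 ± 3.32 CPM in EF; -2.85 ± 0.29, edgeR adjusted p = 0.000462). Of 5 receptor partners, Plxnb1, a plexin that associates with MET, Pdgfrl, a PDGF receptor-like gene, and Lrp1, a partner of PDGFRB, rose by 3.65, 1.99 and 1.12 on the log2 scale, and Cd44, a partner of MET, fell by 1.26 (edgeR adjusted p from 0.00141 to 0.0303). Plxnb1 was low in both groups, at 5.93 ± 2.28 CPM in ha and 0.470 ± 0.213 CPM in EF. Pik3r1, the regulatory subunit of PI3-kinase that binds these receptors, rose by 1.28, Pik3ca, a catalytic subunit, rose by 0.37, and the adaptor genes Crkl and Crk fell by 0.44 and 0.49 (edgeR adjusted p from 0.00122 to 0.0180). Of 12 negative regulators, Lrig1 rose by 1.13, and Ptpn6 and Ptprj fell by 2.21 and 1.02 (edgeR adjusted p from 0.00467 to 0.0292).

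In hr against EF, 2 of the 45 passed, both lower in hr, where 6.95% of all genes passed. Pik3r1 fell by 0.75 and Stat5b, a signal transducer, by 0.56 on the log2 scale (edgeR adjusted p = 0.0285 and 0.0167). Both calls ended with the nearly identical pairs summed and without either EF library. In hr against ha, 20 passed, 8 higher and 12 lower in hr, where 39.4% of all genes passed (17.9% as higher and 21.5% as lower). With the nearly identical pairs summed, 5 of the 20 calls remained (Plau, Plaur, Pdgfrl, Plxnb1 and Pik3r1), and 12 without ha 1. Pik3r1 averaged 61.0 ± 9.77 CPM in hr and 249 ± 2.03 CPM in ha (log2 fold change -2.03 ± 0.14, edgeR adjusted p = 9.01e-05). Plaur was higher in hr by 2.79 and Plau lower, with a log2 fold change of -2.49. Pdgfrl, Plxnb1 and Lrp1 fell in hr by 1.89, 2.57 and 1.25, and Cd44 rose by 0.92. Mst1, the ligand of RON, rose by 2.31 (edgeR adjusted p = 0.0276), Gab1, a docking protein of MET, fell by 0.95 and Crk rose by 0.55. Mst1 was low in both groups, at 4.32 ± 2.55 CPM in hr and 0.8525 ± 0.378 CPM in ha. Medians over the tested pathway genes were 0.00 for ha against EF, -0.03 for hr against EF and 0.01 for hr against ha on the log2 scale.

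**Figure D4:**
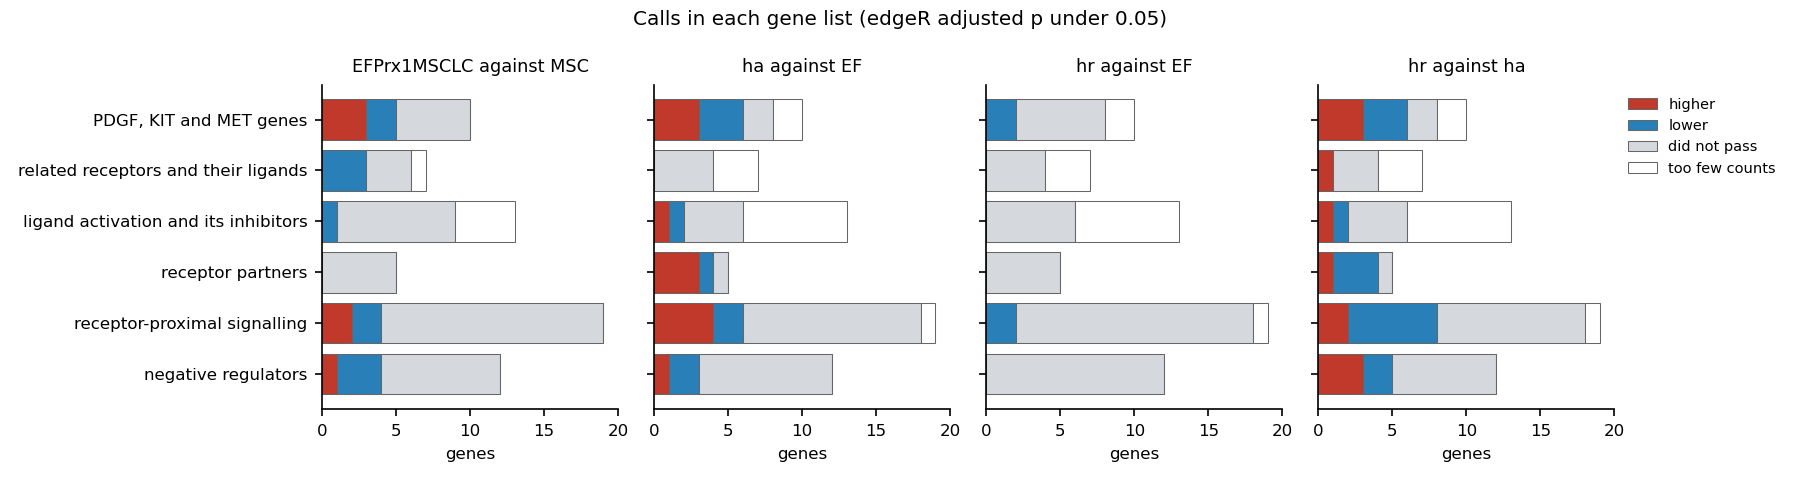
Number of genes that passed as higher, passed as lower, did not pass or had too few counts (edgeR adjusted p under 0.05), for the 10 PDGF, KIT and MET genes and the 5 lists of further pathway genes, in the 4 comparisons. Of the 10 genes, 5 passed in EFPrx1MSCLC against MSC, 6 in ha against EF, 2 in hr against EF and 6 in hr against ha.

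Genes with the most similar profile to each gene were sought among 13726 genes by Pearson correlation of log2(CPM + 0.5), centred on the mean of each experiment, over the 15 libraries. These libraries share groups, so the values are descriptions only. Met was followed most closely by Cand1 (r = 0.983), Pigq and Dclre1a, and Pdgfd by Magee1 (0.984), Copg1 and Kank1. Kitl was followed by Hsp90aa1 (0.979), Ipo7 and Thumpd3, and Hgf by Fat3 (0.974), Sptlc2 and Kif1a. Among the receptors, Pdgfrb was followed by Thbs2 (0.973), Fzd1 and Gpm6b, and Pdgfra by Kcnd1 (0.958), Osr2 and Cacna2d1. Pdgfa was followed by Gsdme (0.939), Rtkn2 and Tcf7, Pdgfb by Cgref1 (0.920) and Pdgfc by Osgepl1 (0.879).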

How the data were processed

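Poly(A) RNA of 15 libraries was measured. Values are expected counts (RSEM's estimates of reads per gene) in a table the authors deposited. Per the submitters' processing notes, reads were handled with STAR and RSEM on GRCm38.p6; versions and the strand setting were not stated. Expected counts were rounded to whole numbers (8.27% were not whole). Genes were filtered with filterByExpr (minimum count 10), scaled by TMM and tested with edgeR's quasi-likelihood test, two-sided, within each experiment, with Benjamini-Hochberg adjustment over all genes and a threshold of 0.05. Versions were edgeR 4.0.16, DESeq2 1.42.0 and limma 3.58.1 under R 4.3.3. Positions and exon lengths came from GENCODE M21. RSEM divides reads between near-identical copies. All 10 genes are named in every comparison, and of each pathway list at most 4 called genes by lowest p. The genes and lists were chosen with earlier results of these data known. Alternatives were other size factors, filters and tools, covariates, blocks, summed pairs and leaving out each library. Total counts of 11195371 to 26833876 limit low genes: 3 counts were the floor, and intervals cover counting error only.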

Additional observations from a re-analysis of the deposited data

Results flagged for a closer look

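Of 18 sets of 4 libraries examined, 1 held a library that stood apart by Dixon's criterion. The sets were 10 genes in EFPrx1MSCLC, and in hr the 8 that reached 10 counts in a library. Among independent values, chance meets this criterion in about 1 in 20 groups. The hr libraries formed 2 nearly identical pairs and are not 4 independent values, so that rate does not apply to the 8 hr sets. No conclusion is drawn from the lack of a flag in hr. Hgf was at 4.56 CPM in EFPrx1MSCLC 219, and the gap to the next library took a share of 0.849 of the group's range, just above the critical value for 4 values. The same library had the highest hematopoietic marker sum of its group, 406 CPM, and its part in the Hgf level was not tested.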

How the results depend on the processing

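Of 510 recomputed log2 fold changes, 444 kept direction and side of the threshold, 46 no longer passed, 12 newly passed and 8 changed sign. All 50 group levels as CPM of the library total stayed within 1 SD. In EFPrx1MSCLC against MSC, 3 of the 10 genes passed with no filter on low counts, and 2 to 5 when single libraries were left out, fewest without EFPrx1MSCLC 221 or 229 or MSC 234. With Y-linked expression as a covariate the MSC group rests on MSC 237 alone, so calls of that fit are not given. Its log2 fold changes are nevertheless among the 510 counted above. In ha against EF, 2 passed with the nearly identical pairs summed and 4 to 6 when single libraries were left out. In hr against EF, 0 passed with the nearly identical pairs summed and 0 to 3 when single libraries were left out, most without ha 1 or ha 2. In hr against ha, 6 to 7 passed when single libraries were left out.

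Of the 8 sign changes, all in genes that had not passed, 1 came with the Y-linked covariate (Pdgfa, -0.16) and 7 from leaving out single libraries, and the cause was not tested. Log2 fold changes over single libraries left out ran as follows. Pdgfc in EFPrx1MSCLC against MSC ran from -0.52 to 0.0047 (positive without MSC 202). In ha against EF, Pdgfb ran from -0.62 to 0.27 (positive without ha 1) and Pdgfc from -0.28 (without ha 2) to 0.49. In hr against EF, Pdgfb ran from -0.0054 (without hr 2-1) to 0.28 and Met from -0.15 to 0.0507 (positive without hr 1-1 or 1-2). Pdgfb in hr against ha ran from -0.11 (without ha 1) to 0.78.

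Counts over all genes were as follows. In EFPrx1MSCLC against MSC, 2887 genes passed, against 4598 with DESeq2, and 1219 (without MSC 237) to 5087 (without MSC 202). In ha against EF, 5961 passed, against 736 with pairs summed and 3070 without EF 1 to 5732. In hr against EF, 973 passed, against 1973 with DESeq2, 1927 with only hr and EF fitted, 0 with pairs summed (797 at an unadjusted p under 0.05) and 0 without either EF library (1888 and 1918 at an unadjusted p under 0.05) to 1796 without ha 2. In hr against ha, 5517 passed, against 1272 with pairs summed.

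With the last title number as a replicate block, 1 of the 10 genes (Pdgfa) passed in hr against EF, 322 genes in all, and 6 in each of the other comparisons of experiment 2. Deviations of same-numbered EF and ha libraries correlated at -0.00852. The EF libraries differed by little more than counting noise, so this value cannot decide whether the numbers mark pairs. They were not taken as pairing. Depth limited Kit and Hgf in experiment 2.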

Other observations

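EFPrx1MSCLC 221 and the EF libraries carry the same title number but come from different experiments, so their values stand side by side with no test, as CPM of the library total. Pdgfd was at 135 CPM in EFPrx1MSCLC 221 and at 8.84 and 7.70 CPM in EF 1 and 2. Pdgfa was at 44.2 CPM in EFPrx1MSCLC 221 and at 198 and 194 CPM in EF 1 and 2. Met was at 299 CPM in EFPrx1MSCLC 221 and at 358 and 369 CPM in EF 1 and 2, and Kitl at 68.6 CPM in EFPrx1MSCLC 221 and at 80.5 and 82.4 CPM in EF 1 and 2.

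Genes within 1 Mb of the start of Met were examined, a choice made after the data were seen. In EFPrx1MSCLC against MSC, 1 of 6 tested passed, where 19.8% of all genes passed, 12.1% as lower. This was Tfec, which was lower (log2 fold change -8.40, edgeR adjusted p = 0.00374). Cav1, the caveolin gene, did not pass (1.51, edgeR adjusted p = 0.142). In hr against EF, 1 of 5 tested passed, Tes, which was higher in hr (1.075, edgeR adjusted p = 0.0264), where 6.95% of all genes passed. In ha against EF, 1 of 5 tested passed, Cav2, which was lower in ha (-0.71, edgeR adjusted p = 0.0482), where 42.6% of all genes passed. In hr against ha, where Met was higher in hr, 4 of 5 tested rose in hr (Cav1, Cav2, Capza2 and Tes) and St7 fell by 0.68 on the log2 scale, where 17.9% of all genes passed as higher and 21.5% as lower. Both neighbours of Pdgfd tested in experiment 2, the caspase genes Casp4 and Casp12, were higher in ha than in EF (log2 fold changes 1.22 and 1.83, edgeR adjusted p = 0.0280 and 0.0057), where 23% of all genes passed as higher. Both were lower in hr than in ha (-2.21 and -2.15, edgeR adjusted p = 0.00136 and 0.00133). In EFPrx1MSCLC against MSC, 1 of 3 tested passed, Casp4, which fell by 2.17. In hr against ha, 6 of 32 neighbours of Pdgfa tested were higher and 4 lower, 0 of 6 of Kitl were higher and 1 lower, and 0 of 6 of Pdgfra were higher and 2 lower, with median log2 fold changes of 0.0136, 0.149 and -0.184. Between ha and EF, 3 of 32 neighbours of Pdgfa were higher in ha and 9 lower, 1 of 6 of Kitl higher and 2 lower, and 2 of 6 of Pdgfra higher and 0 lower. Over all genes, 23% passed as higher in ha and 19.6% as lower. The tested neighbour of Hgf, Cacna2d1, was higher in ha than in EF and lower in hr than in ha.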
